A study of Mus musculus with 6 samples.

Results

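The genes described here are 42 mouse genes of DNA replication and origin licensing, the process by which a cell prepares replication start sites before it copies its DNA. They were selected by gene name, with earlier results of these data known. All 42 were found among the 35275 genes of the deposited count and FPKM tables. A filter on low counts kept 41 of them among the 15628 genes tested; Fen1 did not pass it. By role they are the 6 MCM2-7 helicase genes, 6 genes of helicase activation (Cdc45, the GINS genes and Mcm10) and 7 licensing genes. Another 8 are genes of the sliding clamp, its loader and the single-strand binding protein RPA. The rest are 7 polymerase, nuclease and ligase genes, 5 genes of nucleotide supply, and 3 genes of chromatin on new DNA.

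The study measured RNA from whole colon of C57BL/6 mice by RNA-seq of mRNA-enriched libraries. IL-22 is a cytokine of immune cells that acts on epithelial cells, and 22-B3 is one of the engineered variants of it that the series compares with the wild-type protein. The 3 groups had 2 libraries each: mice given PBS, the buffer control, mice given 200 µg of wild-type IL-22 (WT IL-22), and mice given 200 µg of 22-B3, all for 6 h. No genetic change is named for any group, and the age and sex of the mice and the route of dosing are not given in the sources used here. The labels do not say that the libraries of a group came from separate mice, so the p-values reflect how far these libraries spread, which can be technical variation alone.

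As background, replication starts when the origin recognition complex, Cdc6 and Cdt1 load pairs of MCM2-7 rings onto DNA in G1, and Geminin blocks Cdt1 once S phase has begun. The kinase Cdc7 with its partner Dbf4 then helps Cdc45 and GINS to join the rings, which makes the working helicase. Pcna, set on DNA by the Rfc loader, tethers the polymerases, and ribonucleotide reductase, thymidylate synthase and thymidine kinase supply the building blocks. Many of these genes are transcribed at the G1/S boundary under E2F factors, and in the colon the dividing cells sit mainly in the lower crypt. Whole tissue was measured, so a change in the number of cells of a type and a change in RNA per cell cannot be told apart.

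The libraries held 17428528 to 22081904 counts, with 1.85 to 2.35% of counts on mitochondrial genes. The median gene differed within a pair of libraries by 0.116 on the log2 scale with PBS, by 0.231 with WT IL-22 and by 0.313 with 22-B3, so the PBS pair was the closest. Epithelial markers (Epcam, keratins, Vil1, Cdh1, Cdx2) summed to between 12090 and 14700 CPM, the unit of level used here, a count scaled to the TMM-normalised library size, and all 8 were detected in every library. Socs3, an immediate target of IL-22 signalling, stood at 7.81 and 7.08 CPM with PBS, 248 and 254 CPM with WT IL-22, and 25.3 and 32 CPM with 22-B3. It was higher in all 4 cytokine libraries than in both PBS libraries, and the log2 difference of 22-B3 from WT IL-22 was -3.13 (SE 0.165, edgeR adjusted p = 0.000327).

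With WT IL-22, 28 of the 41 tested replication genes rose against PBS and 0 fell in edgeR's quasi-likelihood test at an adjusted p under 0.05. Across all genes tested, 9.9% rose and 6.74% fell in that comparison. The median log2 change of the 41 genes was 1.17, with a range from -0.49 (Gins4) to 2.55 (Uhrf1), and the median of all genes tested was -0.01. With 22-B3, 22 of the 41 rose against PBS and 0 fell, where 0.947% of all genes rose and 0.154% fell. Their median log2 change was 1.02, ranging from -0.06 to 2.19, against 0.0090 for all genes tested.

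All 22 genes that rose with 22-B3 also rose with WT IL-22, and both counts use the same PBS libraries. Another 6, Gins1, Gins3, Cdc7, Rfc1, Pola2 and Prim1, passed the test with WT IL-22 and not with 22-B3. The other 13 passed it in neither comparison: Gins2, Gins4, Orc1, Orc6, Gmnn, Dbf4, Rfc2, Rfc3, Rfc4, Rfc5, Tyms, Tk1 and Dut. At an unadjusted p under 0.05, 33 members were higher and 1 lower with WT IL-22, where 18.7% and 16.2% of all genes were. With 22-B3, 36 were higher and 0 lower at that level, where 11.5% and 6.74% of all genes were.

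The spread of the PBS pair entered both comparisons. With the 2 PBS libraries summed into 1, 18 members rose with WT IL-22 (0.825% of all genes) and 0 with 22-B3 (0.0128% of all genes), while 28 and 29 were higher at an unadjusted p under 0.05 (10.2% and 4.37% of all genes). The medians of the members in that fit were 1.17 and 1.03, against 1.17 and 1.02 with the libraries kept apart. Leaving out PBS replicate 1 or PBS replicate 2 likewise gave 18 members with WT IL-22 and 0 with 22-B3, where the smallest adjusted p of a member in edgeR with 22-B3 was 0.0569 and 0.0776. The 18 were Mcm2 to Mcm7, Cdc45, Mcm10, Cdc6, Cdt1, Pola1, Pole, Lig1, Rrm1, Rrm2, Uhrf1, Chaf1a and Chaf1b, and they passed under every alternative tried.

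Counted by libraries alone, 38 of the 41 tested members had both WT IL-22 values above both PBS values and 1, Gins4, had both below. Among all genes tested, 34.2% lay wholly above and 35.3% wholly below. With 22-B3, 37 members lay wholly above PBS and 0 wholly below, where 27.7% and 25.5% of all genes did. Added over the 42 genes, the PBS libraries reached 980.5 and 1005 CPM, those of WT IL-22 2525 and 2425 CPM, and those of 22-B3 2155 and 2100 CPM. The summed level of both 22-B3 libraries lay between those of PBS and WT IL-22.

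**Figure D1:**
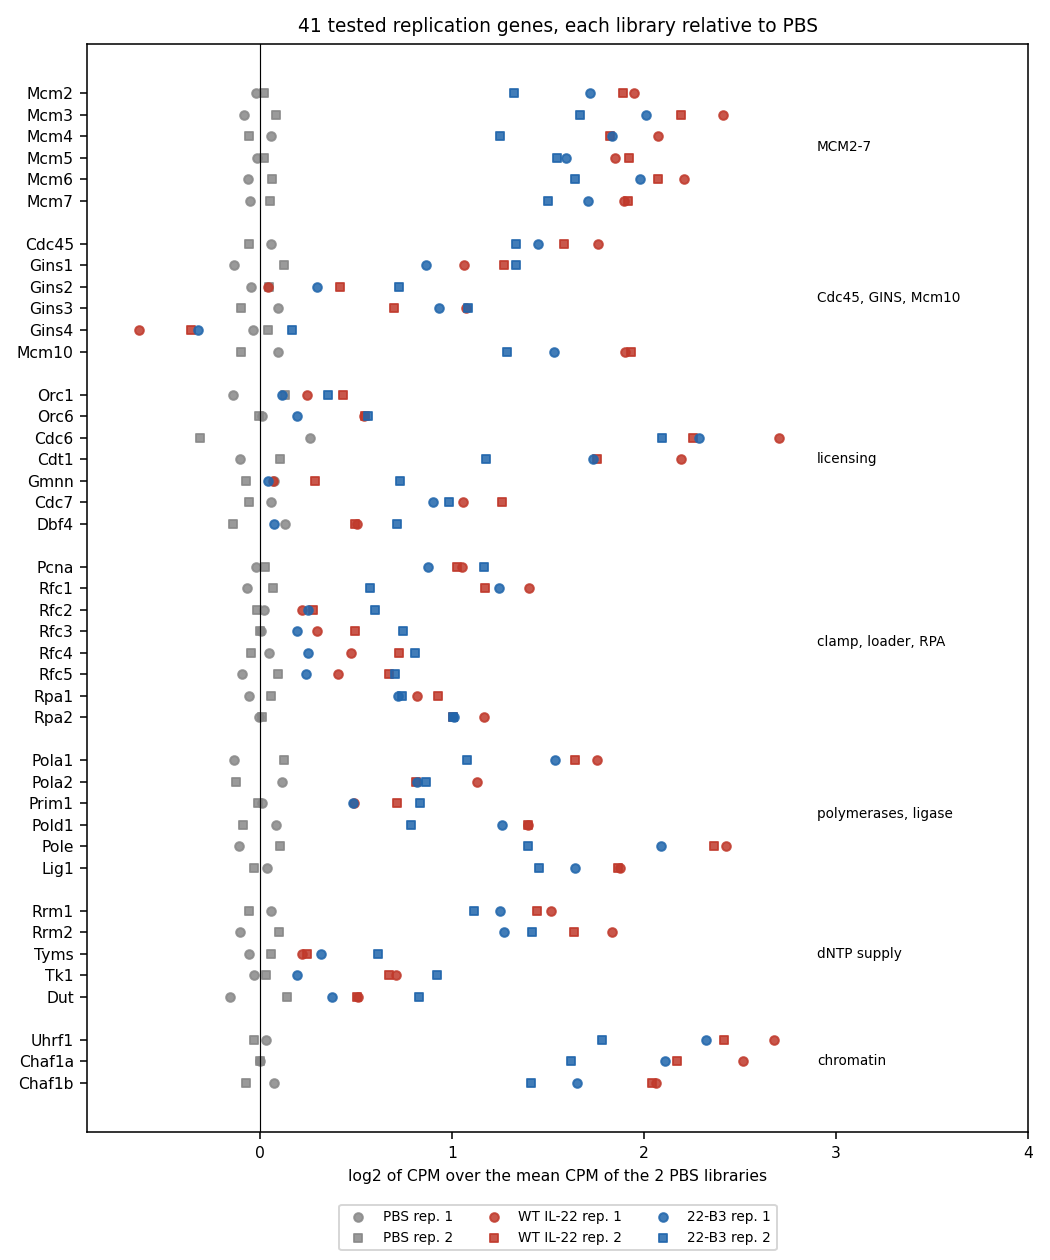
Each row is 1 of the 41 tested replication genes, ordered by role, and each point is 1 library, placed on the x axis at the log2 of its CPM over the mean CPM of the 2 PBS libraries (grey PBS, red WT IL-22, blue 22-B3; circles replicate 1, squares replicate 2). All MCM2-7 and chromatin genes lie above 1 in the 4 cytokine libraries, and Gins4 is the gene with both WT IL-22 libraries below PBS.

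The MCM2-7 genes encode the ring-shaped hexamer that unwinds DNA at the fork, and all 6 rose with both proteins. The fitted log2 changes ran from 1.89 to 2.30 with WT IL-22 and from 1.53 to 1.85 with 22-B3. The RefSeq promoters of 5 of them are shown here because these 6 genes moved together; each runs from 250 bases before to 50 bases after a transcript start, in assembly GRCm38.p6, written in the direction of the gene. Mcm7 has 2 starts in the table, and Mcm4 was not matched in it. Capitals mark the E2F words TTTCCCGC, TTTGGCGC, TTTCGCGC and TTTGCCGC or their reverse complements.
Mcm2, chr6:88898731-88899030, minus strand: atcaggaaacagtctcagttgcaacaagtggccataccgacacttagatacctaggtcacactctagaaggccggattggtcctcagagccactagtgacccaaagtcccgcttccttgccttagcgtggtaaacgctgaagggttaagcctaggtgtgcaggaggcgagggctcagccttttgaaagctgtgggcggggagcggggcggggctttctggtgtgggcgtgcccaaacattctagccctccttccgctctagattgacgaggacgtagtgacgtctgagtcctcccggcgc
Mcm3, chr1:20820263-20820562, minus strand: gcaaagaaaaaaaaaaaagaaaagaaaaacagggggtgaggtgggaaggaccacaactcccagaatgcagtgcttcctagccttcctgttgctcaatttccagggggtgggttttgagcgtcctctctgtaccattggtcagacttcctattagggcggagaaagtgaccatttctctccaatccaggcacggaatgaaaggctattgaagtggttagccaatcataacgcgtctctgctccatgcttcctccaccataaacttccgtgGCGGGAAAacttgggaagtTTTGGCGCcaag
Mcm5, chr8:75109259-75109558, plus strand: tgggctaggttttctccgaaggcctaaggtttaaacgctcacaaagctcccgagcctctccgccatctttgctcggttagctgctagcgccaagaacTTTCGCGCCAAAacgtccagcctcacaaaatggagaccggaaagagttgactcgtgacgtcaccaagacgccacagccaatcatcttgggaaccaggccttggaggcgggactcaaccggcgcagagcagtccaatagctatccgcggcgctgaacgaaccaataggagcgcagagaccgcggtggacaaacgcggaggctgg
Mcm6, chr1:128359656-128359955, minus strand: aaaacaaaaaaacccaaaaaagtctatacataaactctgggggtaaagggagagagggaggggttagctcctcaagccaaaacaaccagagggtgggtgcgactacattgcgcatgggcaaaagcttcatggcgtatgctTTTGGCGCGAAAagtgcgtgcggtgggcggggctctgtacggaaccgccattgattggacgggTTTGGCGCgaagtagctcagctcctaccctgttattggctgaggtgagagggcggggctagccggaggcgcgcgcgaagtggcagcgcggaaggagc
Mcm7, chr5:138171217-138171516, minus strand: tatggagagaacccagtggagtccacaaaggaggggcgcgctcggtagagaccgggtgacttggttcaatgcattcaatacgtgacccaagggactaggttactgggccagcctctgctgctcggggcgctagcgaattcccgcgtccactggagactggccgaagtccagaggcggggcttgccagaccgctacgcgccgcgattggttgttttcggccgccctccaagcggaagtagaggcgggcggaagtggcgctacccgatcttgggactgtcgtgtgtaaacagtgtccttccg
Mcm7, chr5:138171834-138172133, minus strand: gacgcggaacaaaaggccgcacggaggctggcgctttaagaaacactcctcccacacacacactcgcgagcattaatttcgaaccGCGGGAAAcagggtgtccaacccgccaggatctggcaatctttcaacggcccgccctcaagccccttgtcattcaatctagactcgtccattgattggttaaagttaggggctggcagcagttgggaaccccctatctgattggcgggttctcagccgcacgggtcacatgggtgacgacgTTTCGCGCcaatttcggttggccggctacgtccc
Mcm3 held 2 words, 20 and 39 bases past the start. Mcm5 held 2 that overlap, at 153 and 149 bases before it, and Mcm6 held an overlapping pair at 110 and 106 bases and 1 more at 47 bases before it. The upstream Mcm7 start had 1 word 165 bases before and 1 word 17 bases past it, and the other Mcm7 start had 0. No such word was found in the Mcm2 window, which says only that these letters are not there.

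Mcm2 (ENSMUSG00000002870, chromosome 6, 88883475 to 88898780, minus strand; coordinates here and below are in mm10 as the count file gives them) stood at 30.3 and 31.2 CPM with PBS, 119 and 114 CPM with WT IL-22, and 101 and 76.8 CPM with 22-B3. It rose by a log2 of 1.92 (SE 0.165, edgeR adjusted p = 0.000623) with WT IL-22 and 1.53 (SE 0.164, edgeR adjusted p = 0.00427) with 22-B3. All 4 cytokine libraries lay above both PBS libraries, and both 22-B3 libraries lay below both WT IL-22 libraries.

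Mcm3 (ENSMUSG00000041859, chromosome 1, 20802968 to 20820312, minus strand) stood at 20.4 and 22.9 CPM with PBS, 115 and 99 CPM with WT IL-22, and 87.4 and 68.9 CPM with 22-B3. Its rise on the log2 scale was 2.30 (SE 0.174, edgeR adjusted p = 0.000323) with WT IL-22, the highest of the 6 subunits, and 1.85 (SE 0.172, edgeR adjusted p = 0.00215) with 22-B3. The 3 groups did not overlap, with PBS lowest and WT IL-22 highest.

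Mcm4 (ENSMUSG00000022673, chromosome 16, 15623897 to 15637400, minus strand) stood at 22.3 and 20.7 CPM with PBS, 90.4 and 75.9 CPM with WT IL-22, and 76.6 and 51.2 CPM with 22-B3. Its log2 change was 1.95 (SE 0.209, edgeR adjusted p = 0.00157) with WT IL-22 and 1.57 (SE 0.207, edgeR adjusted p = 0.0112) with 22-B3, both past the threshold. Of the 6 subunits it alone had overlapping cytokine groups, since 22-B3 replicate 1 reached the level of WT IL-22 replicate 2.

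Mcm5 (ENSMUSG00000005410, chromosome 8, 75109528 to 75128439, plus strand) stood at 40.4 and 41.4 CPM with PBS, 147 and 155 CPM with WT IL-22, and 123 and 119 CPM with 22-B3. On the log2 scale the increase was 1.89 (SE 0.134, edgeR adjusted p = 0.000286) with WT IL-22 and 1.57 (SE 0.133, edgeR adjusted p = 0.00186) with 22-B3. Its 22-B3 libraries were close to each other and below both WT IL-22 libraries.

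Mcm6 (ENSMUSG00000026355, chromosome 1, 128331590 to 128359664, minus strand) stood at 43.9 and 48 CPM with PBS, 212 and 193 CPM with WT IL-22, and 181 and 143 CPM with 22-B3, the highest CPM of the 6 subunits in every library. The fitted log2 rise was 2.14 (SE 0.165, edgeR adjusted p = 0.000359) with WT IL-22 and 1.82 (SE 0.164, edgeR adjusted p = 0.00186) with 22-B3. CPM is not scaled to gene length. Per length the level of Mcm6 was 10.4 ± 0.408 FPKM with PBS (mean ± SD, n = 2 each). It was 47.7 ± 3.65 FPKM with WT IL-22 and 36.8 ± 8.05 FPKM with 22-B3. On that scale Mcm5 at 11.8 FPKM and Mcm7 at 11.6 FPKM stood above Mcm6 with PBS.

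Mcm7 (ENSMUSG00000029730, chromosome 5, 138164583 to 138172422, minus strand) stood at 33.3 and 35.9 CPM with PBS, 129 and 130.5 CPM with WT IL-22, and 113 and 97.7 CPM with 22-B3. The increase came to a log2 of 1.91 (SE 0.143, edgeR adjusted p = 0.000323) with WT IL-22 and 1.60 (SE 0.142, edgeR adjusted p = 0.00186) with 22-B3, and the 3 groups did not overlap. In GENCODE M21, 12.6% of its exonic bases are shared with Ap4m1 and Cops6 on the opposite strand and with the microRNA genes Mir25 and Mir93 that it hosts, and since the strand setting of the counting is not given in the sources used here, reads there cannot be assigned with certainty.

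**Figure D2:**
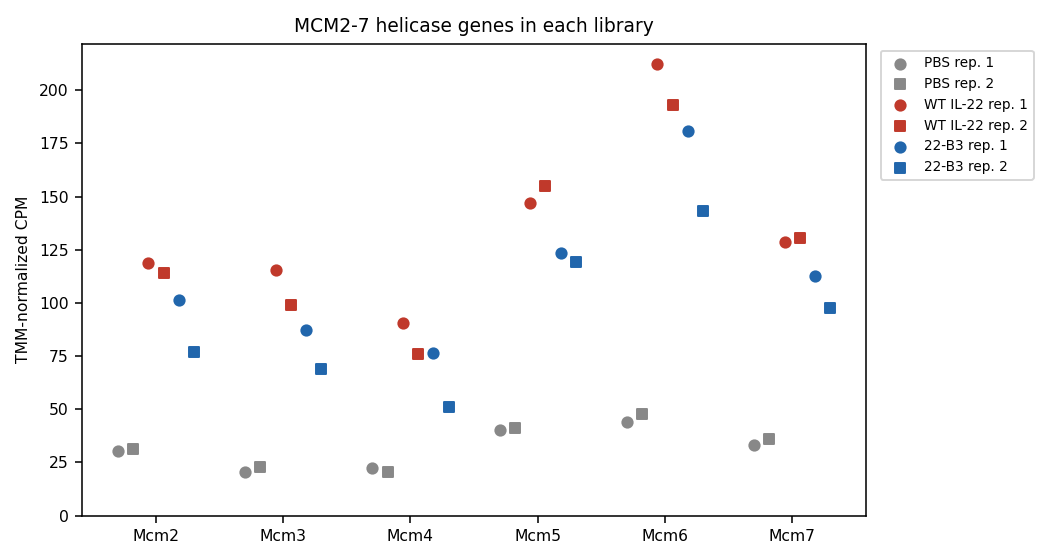
TMM-normalized CPM of the 6 MCM2-7 genes, 1 point per library (grey PBS, red WT IL-22, blue 22-B3; circles replicate 1, squares replicate 2). In every gene the 4 cytokine libraries lie above both PBS libraries, and in Mcm2, Mcm3, Mcm5, Mcm6 and Mcm7 both 22-B3 libraries lie below both WT IL-22 libraries.

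Of the 6 genes of helicase activation, Cdc45, Gins1, Gins3 and Mcm10 rose with WT IL-22, and Cdc45 and Mcm10 also rose with 22-B3. Their median log2 change was 1.03 with WT IL-22 and 1.06 with 22-B3. The 4 GINS genes, which encode the 4 subunits of 1 complex, had fitted log2 changes from -0.49 (Gins4) to 1.17 (Gins1) with WT IL-22.

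Cdc45, which joins MCM2-7 and GINS at the fork, stood at 6.27 and 5.78 CPM with PBS, 20.4 and 18 CPM with WT IL-22, and 16.4 and 15.1 CPM with 22-B3. Its log2 level rose by 1.67 (SE 0.176, edgeR adjusted p = 0.00146) with WT IL-22 and 1.39 (SE 0.177, edgeR adjusted p = 0.00962) with 22-B3. Mcm10, which helps to start the loaded helicase and is no part of the ring, stood at 7.5 and 6.56 CPM with PBS, 26.2 and 26.8 CPM with WT IL-22, and 20.3 and 17.1 CPM with 22-B3. Its log2 change was 1.91 (SE 0.175, edgeR adjusted p = 0.00077) with WT IL-22 and 1.41 (SE 0.175, edgeR adjusted p = 0.00788) with 22-B3. In both genes the 3 groups did not overlap, with WT IL-22 highest.

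Gins1 stood at 4.21 and 5.05 CPM with PBS, 9.67 and 11.2 CPM with WT IL-22, and 8.41 and 11.6 CPM with 22-B3. It rose by a log2 of 1.17 (SE 0.235, edgeR adjusted p = 0.0151) with WT IL-22, and its 22-B3 value of 1.11 (SE 0.236, edgeR adjusted p = 0.0702) did not pass, with both 22-B3 libraries above PBS and 1 of them above both WT IL-22 libraries. Gins3 stood at 3.39 and 2.97 CPM with PBS, 6.68 and 5.16 CPM with WT IL-22, and 6.06 and 6.74 CPM with 22-B3. Its rise on the log2 scale was 0.89 (SE 0.244, edgeR adjusted p = 0.0399) with WT IL-22, and the 22-B3 value was 1.01 (SE 0.245, edgeR adjusted p = 0.1), which is not past the threshold although it is the larger of the 2 changes.

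Gins2 stood at 15.6 and 16.6 CPM with PBS, 16.6 and 21.5 CPM with WT IL-22, and 19.8 and 26.6 CPM with 22-B3, with log2 changes of 0.24 (SE 0.202, edgeR adjusted p = 0.422) and 0.53 (SE 0.202, edgeR adjusted p = 0.228). Its WT IL-22 and PBS libraries overlapped, and 67.3% of its exonic bases are shared with Gse1 on the opposite strand, so its counts are uncertain. Gins4 stood at 30.6 and 32.3 CPM with PBS, 20.3 and 24.5 CPM with WT IL-22, and 25.1 and 35.2 CPM with 22-B3. Both WT IL-22 libraries were below both PBS libraries and the 22-B3 libraries spanned PBS, with log2 changes of -0.49 (SE 0.194, edgeR adjusted p = 0.112) and -0.057 (SE 0.193, edgeR adjusted p = 0.897); neither passed the test. The WT IL-22 value passed as lower where the 22-B3 group was not in the fit (edgeR adjusted p = 0.0286). It also passed where the replicate number was added to the fit (edgeR adjusted p = 0.0288). With 22-B3 replicate 1 or 2 left out, the log2 change with WT IL-22 was -0.51 or -0.48.

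Among the 7 licensing genes, the loaders Cdc6 and Cdt1 rose with both proteins and the kinase gene Cdc7 with WT IL-22. Orc1, Orc6, Gmnn and Dbf4 passed in neither comparison, and their fitted log2 changes lay between 0.18 and 0.54. The 2 loader genes had the larger values within the loading machinery, and the 2 origin recognition genes had values of 0.54 or less in both comparisons.

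Cdc6, an ATPase that loads MCM2-7 together with the origin recognition complex, stood at 4.42 and 2.97 CPM with PBS, 24 and 17.6 CPM with WT IL-22, and 18 and 15.8 CPM with 22-B3. On the log2 scale the increase was 2.49 (SE 0.252, edgeR adjusted p = 0.00116) with WT IL-22 and 2.19 (SE 0.253, edgeR adjusted p = 0.00543) with 22-B3, the highest value of any member with 22-B3. Its level was low, from 57 to 514 counts per library, and its groups against PBS did not overlap.

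Cdt1, the other loader, stood at 12.4 and 14.4 CPM with PBS, 61.1 and 45.2 CPM with WT IL-22, and 44.5 and 30.3 CPM with 22-B3. The fitted log2 rise was 1.99 (SE 0.232, edgeR adjusted p = 0.00213) with WT IL-22 and 1.48 (SE 0.231, edgeR adjusted p = 0.0233) with 22-B3. Cdc7, the kinase that activates the loaded helicase, stood at 2.88 and 2.65 CPM with PBS, 5.75 and 6.62 CPM with WT IL-22, and 5.16 and 5.46 CPM with 22-B3. The increase came to a log2 of 1.16 (SE 0.233, edgeR adjusted p = 0.015) with WT IL-22, and the 22-B3 value of 0.94 (SE 0.235, edgeR adjusted p = 0.108) did not pass, although both 22-B3 libraries lay above both PBS libraries.

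Dbf4, the regulatory subunit of Cdc7, stood at 17.8 and 14.7 CPM with PBS, 23.1 and 22.9 CPM with WT IL-22, and 17.1 and 26.6 CPM with 22-B3. Its log2 changes were 0.50 (SE 0.22, edgeR adjusted p = 0.143) and 0.43 (SE 0.221, edgeR adjusted p = 0.338), and the 22-B3 libraries overlapped PBS. Gmnn encodes Geminin, the inhibitor of Cdt1, and stood at 26.1 and 23.5 CPM with PBS, 25.9 and 30.2 CPM with WT IL-22, and 25.5 and 41 CPM with 22-B3. Its log2 changes of 0.18 (SE 0.224, edgeR adjusted p = 0.603) and 0.42 (SE 0.224, edgeR adjusted p = 0.345) did not pass, its groups overlapped in both comparisons, and 22-B3 replicate 2 was its highest library.

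Orc1, an ATPase subunit of the origin recognition complex, stood at 6.68 and 8.06 CPM with PBS, 8.74 and 9.95 CPM with WT IL-22, and 7.96 and 9.41 CPM with 22-B3, with log2 changes of 0.34 (SE 0.207, edgeR adjusted p = 0.272) and 0.24 (SE 0.209, edgeR adjusted p = 0.564). Orc6, its smallest subunit, stood at 16 and 15.9 CPM with PBS, 23.2 and 23.2 CPM with WT IL-22, and 18.2 and 23.5 CPM with 22-B3, with log2 changes of 0.54 (SE 0.17, edgeR adjusted p = 0.0596) and 0.39 (SE 0.171, edgeR adjusted p = 0.275). Neither gene passed, and both had WT IL-22 libraries above both PBS libraries. Genes on the opposite strand share 10.8% of the exonic bases of Orc1 and 6.93% of those of Orc6.

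Of the 8 genes of the clamp, its loader and RPA, Pcna, Rpa1 and Rpa2 rose with both proteins and Rfc1 rose with WT IL-22. The 4 small loader subunits, Rfc2 to Rfc5, passed in neither comparison. The median log2 change of the 8 was 0.74 with WT IL-22 and 0.64 with 22-B3.

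Pcna (ENSMUSG00000027342, chromosome 2, 132249162 to 132253314, minus strand), the sliding clamp, was the member with the highest level per length in all 3 groups. It stood at 104 and 108 CPM with PBS, 219.8 and 216 CPM with WT IL-22, and 194 and 238 CPM with 22-B3. Its log2 level rose by 1.04 (SE 0.151, edgeR adjusted p = 0.00498) with WT IL-22 and 1.02 (SE 0.151, edgeR adjusted p = 0.0185) with 22-B3, which is a fold of 2.05 and 2.04. The 2 cytokine groups overlapped, with the 22-B3 libraries on either side of the WT IL-22 pair, and of the 2 Pcna pseudogenes counted, 1 had at most 14 counts in a library and the other 0.

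Rpa1 and Rpa2 encode 2 of the 3 subunits of RPA, which coats single-stranded DNA. Rpa1 stood at 57.1 and 61.7 CPM with PBS, 105 and 113 CPM with WT IL-22, and 97.8 and 99.2 CPM with 22-B3, and it rose by a log2 of 0.87 (SE 0.133, edgeR adjusted p = 0.00594) with WT IL-22 and 0.73 (SE 0.133, edgeR adjusted p = 0.044) with 22-B3. Rpa2 stood at 16.3 and 16.4 CPM with PBS, 36.7 and 32.8 CPM with WT IL-22, and 32.9 and 32.8 CPM with 22-B3, and it rose by a log2 of 1.09 (SE 0.147, edgeR adjusted p = 0.00367) and 1.01 (SE 0.147, edgeR adjusted p = 0.0185). The 22-B3 pair was close in both genes, in contrast to the small loader subunits below.

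Rfc1, the large subunit of the clamp loader, stood at 28.4 and 31.2 CPM with PBS, 78.7 and 67.2 CPM with WT IL-22, and 70.5 and 44.3 CPM with 22-B3. It rose by a log2 of 1.29 (SE 0.218, edgeR adjusted p = 0.00841) with WT IL-22 and had 0.95 (SE 0.218, edgeR adjusted p = 0.0857) with 22-B3. Its 2 libraries of 22-B3 stood far apart, replicate 1 within the range of WT IL-22 and replicate 2 between that range and PBS.

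Rfc2 stood at 42.1 and 41.1 CPM with PBS, 48.4 and 50.4 CPM with WT IL-22, and 49.4 and 62.9 CPM with 22-B3, with log2 changes of 0.25 (SE 0.155, edgeR adjusted p = 0.29) and 0.43 (SE 0.156, edgeR adjusted p = 0.21). Rfc3 stood at 23.5 and 23.4 CPM with PBS, 28.8 and 33 CPM with WT IL-22, and 26.8 and 39.2 CPM with 22-B3, with log2 changes of 0.40 (SE 0.197, edgeR adjusted p = 0.187) and 0.49 (SE 0.198, edgeR adjusted p = 0.242). These 2 small subunits had all cytokine libraries above PBS, by amounts that did not pass the test. Rfc4 stood at 14.7 and 13.7 CPM with PBS, 19.7 and 23.5 CPM with WT IL-22, and 16.9 and 24.8 CPM with 22-B3, with log2 changes of 0.60 (SE 0.21, edgeR adjusted p = 0.0797) and 0.55 (SE 0.211, edgeR adjusted p = 0.225). Rfc5 stood at 31.2 and 35.5 CPM with PBS, 44.2 and 53.1 CPM with WT IL-22, and 39.3 and 54.2 CPM with 22-B3, with log2 changes of 0.55 (SE 0.19, edgeR adjusted p = 0.0799) and 0.49 (SE 0.19, edgeR adjusted p = 0.232). In all 4 small subunits 22-B3 replicate 2 was the highest of the 6 libraries. Genes on the opposite strand share 15.1% of the exonic bases of Rfc2, 12.7% of those of Rfc4 and 10.7% of those of Rfc5 in GENCODE M21. The coordinates of Rfc2 there differ from the deposited ones, so its share may not hold for the gene as counted.

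All 6 tested genes of the polymerase, nuclease and ligase group rose with WT IL-22, and Pola1, Pold1, Pole and Lig1 also rose with 22-B3. Their median log2 change was 1.54 with WT IL-22 and 1.18 with 22-B3. The catalytic subunits of all 3 replicative polymerases are among those that passed in both comparisons.

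Pole, the catalytic subunit of the leading-strand polymerase epsilon, stood at 3.29 and 3.8 CPM with PBS, 19 and 18.2 CPM with WT IL-22, and 15 and 9.3 CPM with 22-B3. Its rise on the log2 scale was 2.39 (SE 0.258, edgeR adjusted p = 0.00162) with WT IL-22 and 1.78 (SE 0.259, edgeR adjusted p = 0.0181) with 22-B3. Pold1, the catalytic subunit of polymerase delta, stood at 21.5 and 19 CPM with PBS, 53.2 and 53.2 CPM with WT IL-22, and 48.4 and 34.9 CPM with 22-B3. On the log2 scale the increase was 1.39 (SE 0.184, edgeR adjusted p = 0.00332) and 1.04 (SE 0.184, edgeR adjusted p = 0.04). In both genes replicate 2 of 22-B3 was the lowest of the 4 cytokine libraries and stayed above PBS.

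Pola1, the catalytic subunit of polymerase alpha, stood at 9.76 and 11.7 CPM with PBS, 36.2 and 33.4 CPM with WT IL-22, and 31.1 and 22.6 CPM with 22-B3. The fitted log2 rise was 1.70 (SE 0.198, edgeR adjusted p = 0.00213) with WT IL-22 and 1.32 (SE 0.198, edgeR adjusted p = 0.0193) with 22-B3. Pola2, its accessory subunit, stood at 18.9 and 16 CPM with PBS, 38 and 30.5 CPM with WT IL-22, and 30.6 and 31.6 CPM with 22-B3. The increase came to a log2 of 0.98 (SE 0.171, edgeR adjusted p = 0.00951) with WT IL-22, and the 22-B3 value of 0.84 (SE 0.172, edgeR adjusted p = 0.0659) did not pass. Prim1, the primase subunit that makes RNA primers in the same complex, stood at 19.8 and 19.5 CPM with PBS, 27.5 and 32.1 CPM with WT IL-22, and 27.4 and 35 CPM with 22-B3. Its log2 level rose by 0.60 (SE 0.173, edgeR adjusted p = 0.0461) with WT IL-22, close to the threshold, and had 0.67 (SE 0.173, edgeR adjusted p = 0.116) with 22-B3. Within this 1 complex the fitted change with WT IL-22 thus ran from 0.60 for Prim1 to 1.70 for Pola1.

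Lig1 (ENSMUSG00000056394, chromosome 7, 13277283 to 13311433, plus strand), which joins Okazaki fragments, stood at 27.9 and 26.6 CPM with PBS, 99.9 and 99.2 CPM with WT IL-22, and 85 and 74.7 CPM with 22-B3. It rose by a log2 of 1.87 (SE 0.14, edgeR adjusted p = 0.000323) with WT IL-22 and 1.55 (SE 0.14, edgeR adjusted p = 0.00186) with 22-B3, and the 3 groups did not overlap. Fen1, the nuclease that trims those fragments, had 2 and 1 counts with PBS, 5 and 14 counts with WT IL-22, and 5 and 3 counts with 22-B3, and was not tested. Of its exonic bases in GENCODE M21, 84.2% are shared with Tmem258 and Gm10143 on the opposite strand, so these counts give no level for it.

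Among the 5 genes of nucleotide supply, Rrm1 and Rrm2 rose with both proteins, and Tyms, Tk1 and Dut passed in neither comparison. Rrm1 and Rrm2 are the 2 subunits of ribonucleotide reductase, which makes deoxyribonucleotides. The other 3 enzymes serve the supply of thymidine nucleotides or the removal of dUTP.

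Rrm1 stood at 54.3 and 50.2 CPM with PBS, 149 and 142 CPM with WT IL-22, and 124 and 113 CPM with 22-B3, and it rose by a log2 of 1.48 (SE 0.138, edgeR adjusted p = 0.00077) with WT IL-22 and 1.18 (SE 0.137, edgeR adjusted p = 0.0055) with 22-B3. Rrm2 stood at 16.4 and 18.8 CPM with PBS, 62.6 and 54.6 CPM with WT IL-22, and 42.4 and 46.9 CPM with 22-B3, and it rose by a log2 of 1.73 (SE 0.158, edgeR adjusted p = 0.00077) and 1.34 (SE 0.158, edgeR adjusted p = 0.00589). In both subunits PBS was lowest, 22-B3 intermediate and WT IL-22 highest, with no overlap.

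Tyms, thymidylate synthase, stood at 43.4 and 47.1 CPM with PBS, 52.6 and 53.6 CPM with WT IL-22, and 56.3 and 69.2 CPM with 22-B3, with log2 changes of 0.23 (SE 0.15, edgeR adjusted p = 0.304) and 0.47 (SE 0.15, edgeR adjusted p = 0.17). Tk1, thymidine kinase, stood at 34.1 and 35.6 CPM with PBS, 57 and 55.6 CPM with WT IL-22, and 39.8 and 66 CPM with 22-B3, with log2 changes of 0.69 (SE 0.219, edgeR adjusted p = 0.0617) and 0.60 (SE 0.22, edgeR adjusted p = 0.213). Dut, the enzyme that removes dUTP, stood at 29.8 and 36.6 CPM with PBS, 47.3 and 47.2 CPM with WT IL-22, and 43.1 and 59 CPM with 22-B3, with log2 changes of 0.51 (SE 0.185, edgeR adjusted p = 0.0892) and 0.62 (SE 0.185, edgeR adjusted p = 0.152). All 3 had every cytokine library above both PBS libraries, Tyms had both 22-B3 libraries above both WT IL-22 libraries, and 22-B3 replicate 2 was the highest library in each.

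The 3 chromatin genes rose with both proteins, and their median log2 changes, 2.35 with WT IL-22 and 1.88 with 22-B3, were the highest of the role groups. Uhrf1 (ENSMUSG00000001228, chromosome 17, 56303321 to 56323486, plus strand) brings the maintenance methyltransferase to newly copied DNA. It stood at 22 and 21.1 CPM with PBS, 138 and 115 CPM with WT IL-22, and 108 and 74 CPM with 22-B3, and it rose by a log2 of 2.55 (SE 0.205, edgeR adjusted p = 0.000428) with WT IL-22, the largest change of any member, and 2.08 (SE 0.202, edgeR adjusted p = 0.00284) with 22-B3. Its fold over PBS was 5.85 with WT IL-22 and 4.21 with 22-B3.

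Chaf1a and Chaf1b encode the large and middle subunits of CAF-1, which sets histones on new DNA. Chaf1a stood at 7.14 and 7.13 CPM with PBS, 40.7 and 32.1 CPM with WT IL-22, and 30.7 and 21.9 CPM with 22-B3, and it rose by a log2 of 2.35 (SE 0.216, edgeR adjusted p = 0.00077) with WT IL-22 and 1.88 (SE 0.215, edgeR adjusted p = 0.00529) with 22-B3. Its counts are uncertain, since in GENCODE M21 52.5% of its exonic bases are shared with Ubxn6 on the opposite strand. There Chaf1a ends at 56072289, past the deposited end at 56068026, so the share in the gene as counted is not known. Chaf1b stood at 9.86 and 8.9 CPM with PBS, 39.1 and 38.7 CPM with WT IL-22, and 29.4 and 24.9 CPM with 22-B3, and it rose by a log2 of 2.05 (SE 0.163, edgeR adjusted p = 0.00041) and 1.53 (SE 0.163, edgeR adjusted p = 0.00427). In both genes the 3 groups did not overlap and WT IL-22 was highest.

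**Figure D3:**
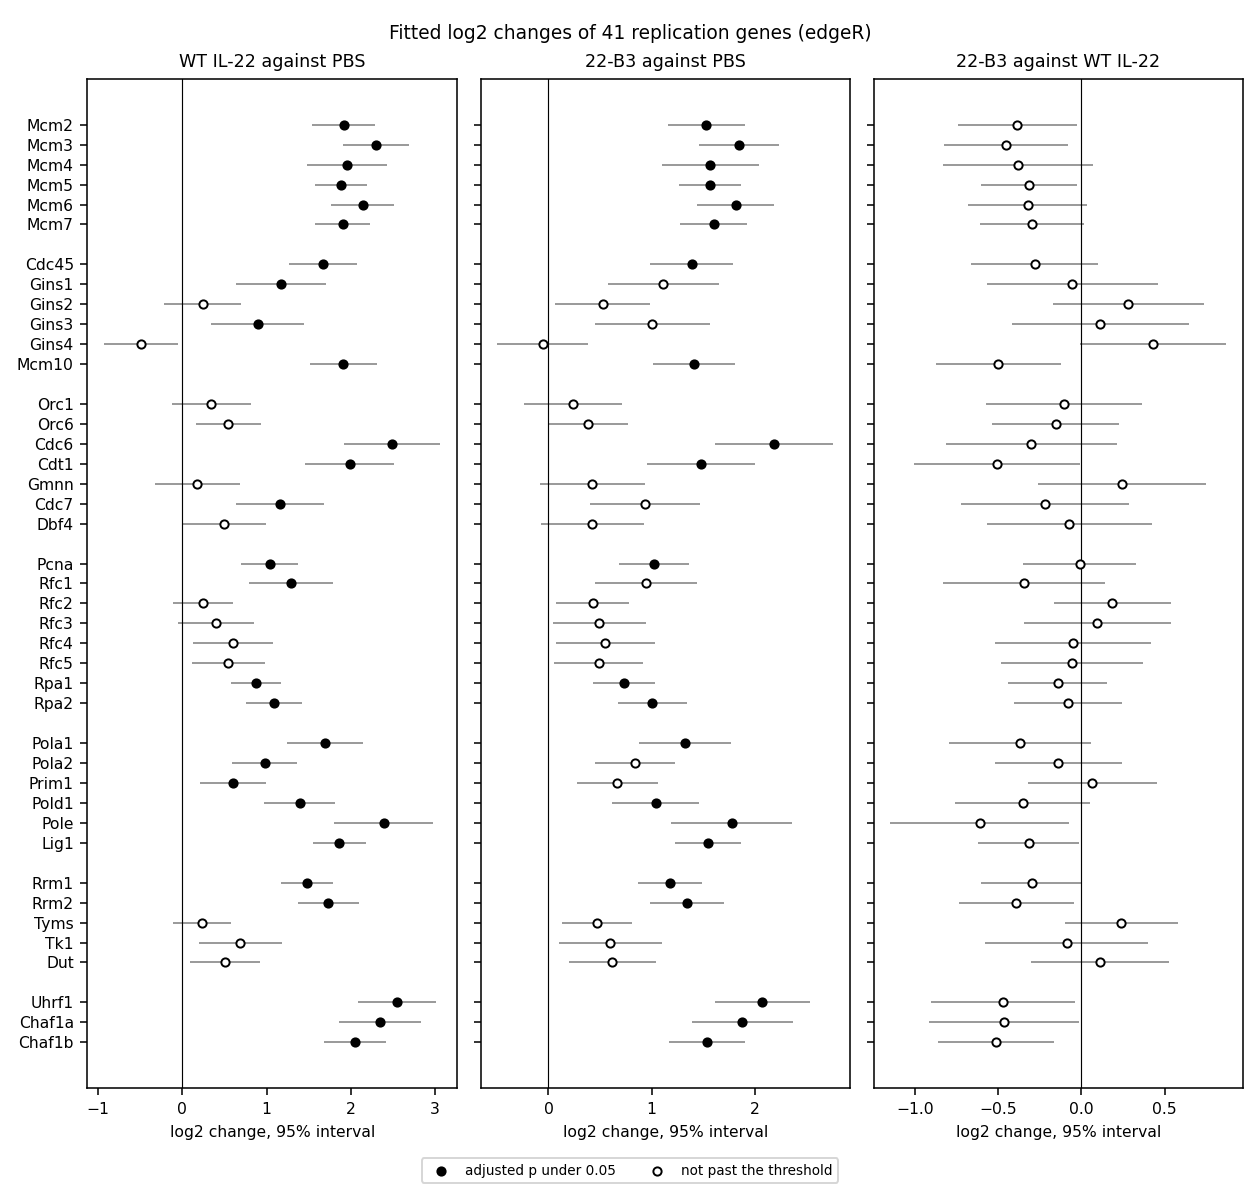
Fitted log2 changes of the 41 tested genes (points, filled where the edgeR adjusted p is under 0.05) with 95% intervals (lines), in 3 panels, 1 for each protein set against PBS and 1 for the proteins set against each other. The first panel has 28 filled points and the second 22, and the third has 0, with 32 of its 41 points below 0.

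Set directly against WT IL-22, 22-B3 gave 0 replication genes higher and 0 lower in edgeR, and also 0 in DESeq2 and in limma-voom. Among all genes tested, 0.032% were higher and 0.0704% lower. The median log2 difference of the 41 members was -0.22 and that of all genes was 0.0024; 32 members had a negative value and 9 a positive one. At an unadjusted p under 0.05, 0 members were higher and 11 lower, where 5.09% and 4.82% of all genes were; the 11 are Mcm2, Mcm3, Mcm5, Mcm10, Cdt1, Pole, Lig1, Rrm2, Uhrf1, Chaf1a and Chaf1b. The smallest adjusted p in edgeR was 0.348, for Chaf1b.

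By libraries, 19 members had both 22-B3 values below both WT IL-22 values, where 17.3% of all genes did, and 2, Gins4 and Tyms, had both above, where 17.6% of all genes did. The 95% intervals of the difference show what sizes these libraries leave in range, from -1.15 to 0.87 on the log2 scale over the 41 genes. For Chaf1b the difference was -0.52 with an interval of -0.87 to -0.17. For Pole it was -0.61 with an interval of -1.15 to -0.078. Pcna had a difference of -0.012 with an interval of -0.35 to 0.33, and Gins4 one of 0.43 with -0.010 to 0.87.

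Without 22-B3 replicate 1, 6 members were lower with 22-B3 than with WT IL-22, where 1.48% of all genes were: Mcm2 at -0.60, Mcm3 at -0.64, Mcm4 at -0.70, Rfc1 at -0.72, Pole at -1.003 and Uhrf1 at -0.77 on the log2 scale, with edgeR adjusted p from 0.0302 to 0.0495. That fit leaves 22-B3 with its replicate 2 alone, which is the lower of the pair in all 6 of these genes and is assumed to vary like the other groups. Without any other single library the count was 0.

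The 2 libraries of 22-B3 split the members by how much they had changed with WT IL-22. In replicate 1, 20 members were higher than in replicate 2, among them all 6 MCM2-7 genes, Cdc6, Cdt1, Pole, Uhrf1, Chaf1a and Chaf1b. All 20 had passed the test with WT IL-22, with a median log2 change there of 1.92. The 21 members higher in replicate 2 include Pcna, Rrm2, the GINS genes, Gmnn, Tk1 and the small Rfc subunits; 8 of them had passed with WT IL-22, and their median log2 change there was 0.55.

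At the ends of that range, Pole was higher in replicate 1 by 0.69 on the log2 scale and Tk1 higher in replicate 2 by 0.73. The split was not particular to replication genes among those that rose: of the 28 members called with WT IL-22, 71.4% were higher in 22-B3 replicate 1, against 72.7% of all 1547 genes called higher. Of the 13 members not called, 0 were higher in replicate 1, against 50.4% of the 13027 genes not called in either direction. The related lists described below shared this in part. The 10 G2 and mitosis genes not called with WT IL-22 were all higher in replicate 2. So were the 14 other replication genes not called, except Mcmbp and Mtbp. Of the 6 E2F, pocket protein and G1/S regulators not called, Tfdp2, Rb1 and Rbl2 were higher in replicate 1. The PBS and WT IL-22 pairs differed less, with a median absolute log2 difference over the members of 0.118 and 0.175 against 0.353 for the 22-B3 pair.

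**Figure D4:**
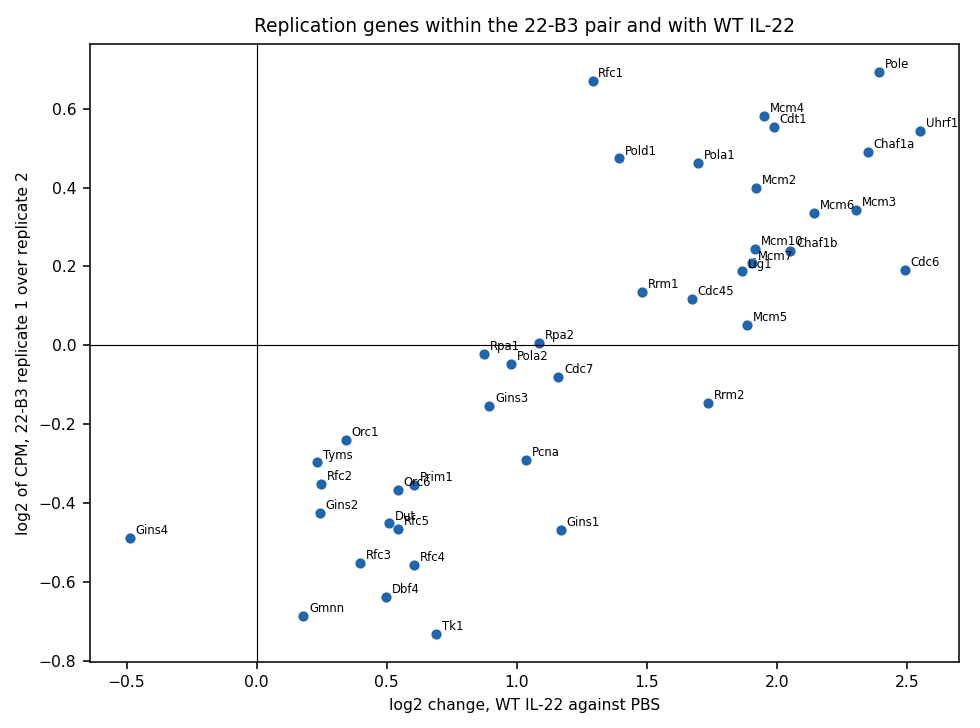
Each point is 1 of the 41 tested genes, with its fitted log2 change of WT IL-22 against PBS on the x axis and the log2 ratio of 22-B3 replicate 1 over replicate 2 on the y axis; the 2 axes use different libraries. The 20 genes above the horizontal line all have changes of 1.09 or more with WT IL-22, and the 21 below it run from -0.49 (Gins4) to 1.73 (Rrm2).

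Levels can be compared between genes only per length, and on the FPKM scale the order of the members differed between PBS and the cytokine groups. With PBS the order began with Pcna at 69.3 ± 0.0872 FPKM (mean ± SD, n = 2 here and below), Rfc2 at 27.1 ± 1.12, Gins4 at 22.8 ± 0.321, Gmnn at 21.8 ± 2.13 and Dut at 16.9 ± 2.03. Gins4 and Gmnn did not differ beyond their spread. With WT IL-22 the order began with Pcna at 147 ± 3.15 FPKM, Mcm6 at 47.7 ± 3.65, Mcm5 at 45.2 ± 1.28 and Mcm7 at 44.9 ± 0.0751, of which the 3 MCM genes lie within their spread. Mcm6 stood at rank 13 with PBS and rank 2 with both proteins.

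In the other direction, Gins4 went from rank 3 with PBS to rank 20 with WT IL-22 and 13 with 22-B3. Uhrf1 moved from rank 27 at 5.96 ± 0.322 FPKM to rank 6 at 36.1 ± 4.93 FPKM with WT IL-22 and rank 10 with 22-B3. With 22-B3 the order began with Pcna at 139.5 ± 11.9 FPKM, Mcm6 at 36.8 ± 8.05, Rfc2 at 36.2 ± 4.15, Mcm7 at 35 ± 5.53 and Mcm5 at 34.9 ± 2.85, and from Mcm6 down these overlap within their SD. Fen1 has no usable level, and Pole, the lowest of the tested members with PBS, rose from 0.489 ± 0.0381 FPKM to 2.67 ± 0.104 FPKM with WT IL-22.

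The promoter table held 35 of the 42 members, with 41 promoters; Mcm4, Gins1, Gins2, Gins4, Gmnn, Rfc2 and Pole were not matched. An E2F word on either strand was present for 13 of the 35 genes, or 37.1%, against 2.6% of the 27025 genes in the table. The 13 were Mcm3, Mcm5, Mcm6, Mcm7, Gins3, Orc1, Cdc6, Cdt1, Rfc3, Pola1, Pold1, Lig1 and Uhrf1. The CCAAT box, CCAAT, was present for 60% of the members against 41.1% of all genes, the CHR words TTTGAA and TTTAAA for 28.6% against 30.6%, and the STAT word TTCNNNGAA for 11.4% against 9.55%. Overlapping E2F words were counted as separate matches, and a match is a run of letters, not a bound site.

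Of the 13 genes with an E2F word, 11 rose with WT IL-22, and Orc1 and Rfc3 did not pass. Their median log2 change was 1.89 with WT IL-22, ranging from 0.34 to 2.55, and 1.55 with 22-B3. Of the 21 tested genes whose promoter held none, 14 rose with WT IL-22, and the medians were 1.04 and 0.94. Genes without the word include Mcm2 and both CAF-1 genes, so large changes occurred in both sets.

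A further 3 lists place these genes among their neighbours in the cell cycle. Of 38 other replication genes, 23 rose and 1, Pold4, fell with WT IL-22, and 11 rose with 22-B3. Among all genes tested, 9.9% rose and 6.74% fell with WT IL-22, and 0.947% rose with 22-B3. The median log2 changes of the 38 were 0.78 and 0.68. Pold4, named because it was the 1 that fell and so chosen after its value was seen, stood at 30.8 and 28.4 CPM with PBS, 14.2 and 17.3 CPM with WT IL-22, and 18.7 and 22.1 CPM with 22-B3. Its log2 change was -0.91 (SE 0.171, edgeR adjusted p = 0.0122) with WT IL-22. The others of highest level per length were mixed: Pold2, a polymerase delta subunit, rose by 1.04 (SE 0.135, edgeR adjusted p = 0.00287) and 1.004 (SE 0.135, edgeR adjusted p = 0.0118), whereas Dtymk, thymidylate kinase, had 0.085 (SE 0.195, edgeR adjusted p = 0.79) with WT IL-22, Rpa3, the small RPA subunit, had -0.63 (SE 0.216, edgeR adjusted p = 0.0766), and Rnaseh2c, a subunit of RNase H2, had -0.37 (SE 0.243, edgeR adjusted p = 0.309).

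Of 20 E2F, pocket protein and G1/S regulators, 14 rose with WT IL-22 (9.9% of all genes) and 6 with 22-B3 (0.947% of all genes). Their median log2 changes were 0.92 and 0.62. E2f1, an activator of replication genes, stood at 7.24 and 7.86 CPM with PBS, 27.4 and 22.8 CPM with WT IL-22, and 24.2 and 17.1 CPM with 22-B3. Its rise on the log2 scale was 1.73 (SE 0.212, edgeR adjusted p = 0.00236) with WT IL-22 and 1.45 (SE 0.212, edgeR adjusted p = 0.0184) with 22-B3. Tfdp1, the DNA-binding partner of E2F proteins, rose by 0.96 (SE 0.139, edgeR adjusted p = 0.00494) and 0.80 (SE 0.139, edgeR adjusted p = 0.0386). Cdk2 (log2 1.09), E2f4 (0.76) and Cdc25a (0.84) rose with WT IL-22, with edgeR adjusted p from 0.00494 to 0.0168, and did not pass with 22-B3.

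Of 20 genes of G2 and mitosis, 10 rose with WT IL-22 (9.9% of all genes) and 1, Top2a, rose with 22-B3 (0.947% of all genes). Their median log2 changes were 0.57 and 0.34. Top2a, named after its value was seen, encodes a topoisomerase, and its change on the log2 scale was 1.03 (SE 0.166, edgeR adjusted p = 0.0267). Plk1, a mitotic kinase, rose by 0.57 (SE 0.165, edgeR adjusted p = 0.0479) with WT IL-22. Cdc20, an activator of the anaphase-promoting complex, had 0.022 (SE 0.217, edgeR adjusted p = 0.956), Ccnb2, a mitotic cyclin, -0.60 (SE 0.239, edgeR adjusted p = 0.113), and Mad2l1, of the spindle checkpoint, -0.12 (SE 0.242, edgeR adjusted p = 0.768), none of them past the threshold. In all 3 lists 0 genes passed between 22-B3 and WT IL-22. With the PBS libraries summed, 6, 5 and 1 genes rose with WT IL-22, where 0.825% of all genes did. In that fit 0 rose in any list with 22-B3, where 0.0128% of all genes did.

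Markers of other cells moved beside these results. Summed over the list, the 8 epithelial markers were at 12090 and 12170 CPM with PBS, 13430 and 13010 CPM with WT IL-22, and 13740 and 14700 CPM with 22-B3. Of the 8, 2, Vil1 and Cdh1, rose with WT IL-22. For this and the counts below, 9.9% of all genes tested rose and 6.74% fell with WT IL-22. With 22-B3, 0.947% rose and 0.154% fell. By libraries, 4 of the 8, Krt20, Vil1, Cdh1 and Cdx2, lay wholly above PBS with WT IL-22, where 34.2% of all genes did. Another 3, Epcam, Krt18 and Krt19, lay wholly below, where 35.3% of all genes did. The log2 changes of these 3 were -0.15, -0.084 and -0.070 and did not pass. Smooth muscle markers were at 12350 and 12480 CPM with PBS, 5985 and 8619 CPM with WT IL-22, and 8521 and 10670 CPM with 22-B3, and 3 of 6, Acta2, Tagln and Actg2, fell with WT IL-22. Macrophage markers were at 496 and 511 CPM with PBS and at 213 to 315 CPM in the cytokine libraries. Lyz2 made up most of that sum with PBS, at 339 and 348 CPM. Of the 5 tested, C1qa, C1qb and Lyz2 fell with WT IL-22, and 0 passed with 22-B3. Csf1r and Cd68 had log2 changes of -0.087 and -0.10 with WT IL-22 and of 0.029 and 0.042 with 22-B3, not past the threshold. The part of these shifts in the replication results was not tested.

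Crypt base markers were at 94.7 and 97.1 CPM with PBS and 92.4 to 123 CPM in the cytokine libraries, and 0 of the 4 tested passed. Smoc2 made up most of that sum with PBS, at 60.1 and 59.9 CPM. With WT IL-22 the log2 changes were 0.67 for Axin2, 0.52 for Lgr5, 0.19 for Ascl2 and -0.12 for Smoc2. With 22-B3 they were 0.38, 0.42, -0.073 and 0.12. B cell and germinal centre markers were at 63.7 and 68.0 CPM with PBS and at 22.4 to 48.1 CPM in the cytokine libraries. Both ends of that range were 22-B3 libraries, with 48.1 CPM in replicate 1 and 22.4 CPM in replicate 2. Of the 8 tested, 1, Rgs13, fell with WT IL-22, and Mef2b was at 0 counts in all 6 libraries. T cell markers summed to 6.18 to 11.7 CPM and 0 of 5 passed. Fibroblast markers summed to 1287 to 1928 CPM and 1 of 6, Dcn, fell with WT IL-22. By libraries, 2 of these 6 lay wholly above PBS with WT IL-22 and 2 wholly below, where 34.2% and 35.3% of all genes did. Among all genes tested, 6.74% fell with WT IL-22, so 1 call in a list of 6 or 8 is near that share. Both lymphocyte lists summed to less in every cytokine library than in either PBS library.

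**Figure D5:**
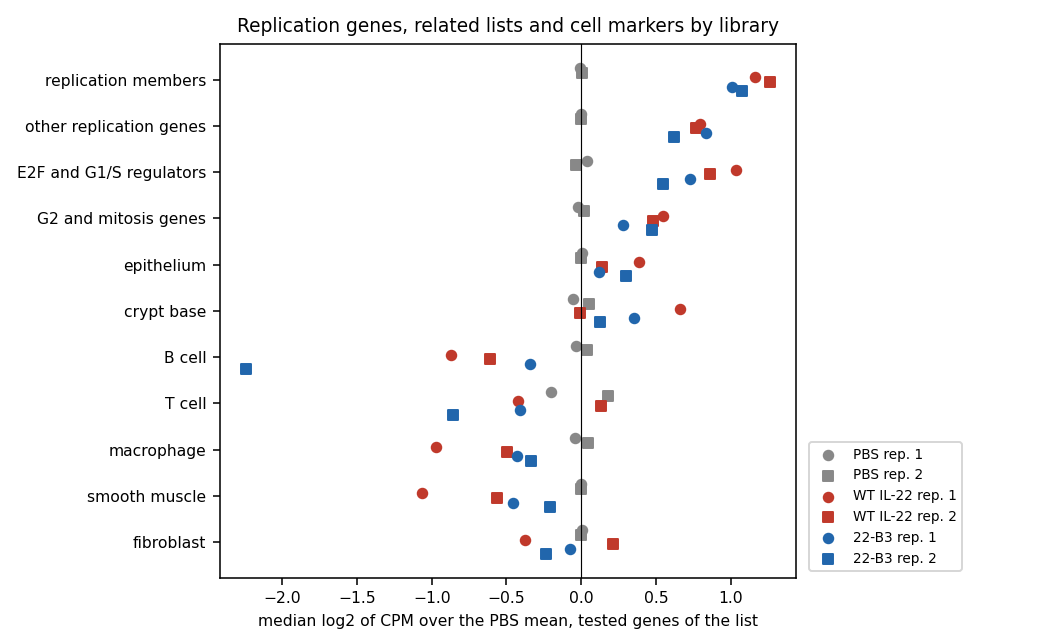
For each gene list, the x axis gives the median over its tested genes of the log2 of CPM over the PBS mean, 1 point per library (grey PBS, red WT IL-22, blue 22-B3; circles replicate 1, squares replicate 2). The 41 replication genes sit at 1.01 to 1.26 in the 4 cytokine libraries, and the other cell cycle lists at 0.28 to 1.04. The smooth muscle, macrophage and B cell lists lie below 0 in all 4, with the B cell list at -2.24 in 22-B3 replicate 2.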

How the data were processed

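RNA of mouse colon was sequenced from 6 libraries, 2 each for PBS, WT IL-22 and 22-B3. Per the submitters' processing notes, reads were aligned to mm10 with STAR 2.5; the counting program, the annotation release and the strand setting are not given in the sources used here. The authors deposited a table of counts per gene, in which the values are whole numbers, and a table of FPKM; the deposited FPKM differed by at most 5e-12 of the value from FPKM recomputed here from the counts and the gene lengths in the file.

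Counts were tested with edgeR 4.0.16 in R 4.3.3 (filterByExpr, TMM, robust quasi-likelihood fit over all 6 libraries with 1 mean per group, Benjamini-Hochberg over 15628 genes, threshold 0.05). Levels are TMM-normalized CPM, and FPKM was used to compare genes; intervals are 95%. With 17428528 to 22081904 counts per library and 2 libraries per group, each interval rests on a spread estimated from few libraries. Alternatives used DESeq2 1.42.0 and limma 3.58.1, other scalings and filters, log2(FPKM + 0.1) and log2(FPKM + 1), summed PBS libraries, a replicate block and each library left out. The members, lists and tests were chosen with earlier results of these data known. All 42 members are named whatever their result. Of the related lists, the 4 genes of highest mean FPKM and E2f1 are named. Pold4, Top2a, Mcmbp, Mtbp, Tfdp2, Rb1, Rbl2 and the single cell markers were added after their values were seen. The edgeR scripts were tested on simulated counts. Exon overlaps come from GENCODE M21 and promoters from RefSeq in GRCm38.p6. The M21 coordinates matched the deposited ones for 33 of the 42 members. The marker Adgre1 was not analysed here.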

Additional observations from a re-analysis of the deposited data

How the results depend on the processing

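Under the alternatives tried, 18 to 35 members were higher with WT IL-22 and 0 to 29 with 22-B3. These came to 18 and 0 once both PBS libraries were summed, with member medians of 1.17 and 1.03 on the log2 scale. Leaving out 1 library at a time gave 18 to 35 members higher and 0 to 1 lower with WT IL-22, 0 to 26 higher with 22-B3, and 0 to 6 lower with 22-B3 than with WT IL-22. Over the same fits the share of all genes called ran from 0.664 to 17.2% higher and 0.161 to 14.7% lower with WT IL-22, 0.0062 to 8.72% higher with 22-B3, and 0.0124 to 1.48% lower between the proteins. A group left with 1 library was assumed to vary like the others. Fitting only the 2 groups compared, adding the replicate block, or leaving out 22-B3 replicate 1 or 2 gave 1 member lower with WT IL-22, Gins4 (edgeR adjusted p = 0.0288 with the block). The cause of these shifts was not tested. With the replicate block, 33 members were higher with WT IL-22 (16% of all genes) and 29 with 22-B3 (5.04% of all genes), and 0 passed between 22-B3 and WT IL-22. The replicate numbers are not shown to pair the libraries: deviations of same-numbered libraries correlated at 0.062 between PBS and WT IL-22, 0.049 between PBS and 22-B3, and 0.29 between WT IL-22 and 22-B3. Upper-quartile scaling moved the median of all genes to -0.13 with WT IL-22 and -0.10 with 22-B3, and the medians of the members to 1.05 and 0.92. Fen1, with at most 14 counts per library, was not tested.

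A change of sign from the main fit was seen in 23 cases, each being 1 gene under 1 alternative, and each time short of the threshold. Leaving out 1 library at a time, the log2 change of Gins4 with 22-B3 against PBS ran from -0.32 to 0.14. The log2 difference of 22-B3 from WT IL-22 ran from -0.43 to 0.21 for Dbf4, -0.13 to 0.32 for Dut, -0.31 to 0.16 for Gins1, -0.065 to 0.31 for Gins3 and -0.14 to 0.55 for Gmnn. It ran from -0.23 to 0.0073 for Orc1, -0.35 to 0.014 for Orc6, -0.17 to 0.12 for Pcna, -0.29 to 0.025 for Pola2 and -0.12 to 0.23 for Prim1. For the loader genes it ran from -0.0030 to 0.35 (Rfc2), -0.21 to 0.34 (Rfc3), -0.36 to 0.20 (Rfc4) and -0.31 to 0.15 (Rfc5), and for Tk1 from -0.50 to 0.23. Limma on log2(FPKM + 0.1) and log2(FPKM + 1) gave Prim1 -0.0032 and -0.0028.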
